A study of Mus musculus with 2 samples.

Results

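Immediate early genes are genes that a neuron transcribes within minutes of strong synaptic input, without first making new protein. The 10 followed here were chosen by symbol (Fos, Fosb, Junb, Egr1, Egr2, Egr3, Egr4, Arc, Npas4 and Nr4a1), and each symbol matched 1 gene among the 55536 mouse genes of the tables. They were read in left cerebral cortex from 2 females of the B6CASTF1/J strain, 10 days old and without any labelled treatment, with 1 stranded, ribosome-reduced total RNA library per animal. The labels number these as biological replicates 1 and 2 but give both the same donor identifier, so how closely the animals are related is not known. Each library started from 300 ng of RNA, to which ERCC spike-in transcripts were added. There was no stimulated, silenced, older or male cortex to compare with, so the data give levels, transcript forms and the distance between 2 animals, and no p-value was computed. The reads assigned to genes totalled 31031340 for replicate 2 and 29867112 for replicate 1.

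When calcium enters a neuron through NMDA receptors and voltage-gated calcium channels, kinases such as CaMKIV and the RSK and MSK kinases reach factors that already sit on these promoters. CREB binds the cAMP response element (CRE), and serum response factor (SRF) with its Elk partners binds the CArG box. Most of the proteins made are transcription factors that act on a second wave of genes, while Arc acts at the synapse, where it promotes removal of AMPA receptors. The mRNAs are short-lived, so the level in a whole cortex sums resting and recently active cells, and in bulk tissue more expressing cells and more RNA per cell cannot be told apart.

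The promoter windows of the 7 members searched carry the letters of the CRE core. RefSeq windows of 300 bases (GRCm38.p6, 250 bases before the gene start and 50 from it) matched 7 of the 10 members, and windows for Egr1, Egr3 and Arc were not used here. The CRE core TGACG was present on either strand in 7 of 7 of these windows, against 20.8% of all 32851 windows in the table and 23.6% of the 21263 windows of protein-coding genes. None of the 7 held the full CRE TGACGTCA, which was in 1.79% of all windows. The CArG box was found in 1 window, that of Egr2 (1.63% of all windows), TATAAA in 2 (13.6%), and the GC box GGGCGG in 4 (35.7%). The AP-1 site TGANTCA (7.81% of all windows) and the EGR site GCGTGGGCG (0.612%) were found in none of the 7 windows. A CRE core inside a full CRE counts for both motifs. Only exact matches within the windows were counted, so variant forms of a site and sites further upstream were not. These are letters in a window, not measured binding. The stretches that hold them are printed 5′ to 3′ on the strand of the gene to show where the core lies, with the CRE core (TGACG or its reverse complement CGTCA), CArG box and TATAAA in capitals. The first 4 run from 150 bases to 1 base before the start:
Fos, chr12:85473740-85473889, plus strand: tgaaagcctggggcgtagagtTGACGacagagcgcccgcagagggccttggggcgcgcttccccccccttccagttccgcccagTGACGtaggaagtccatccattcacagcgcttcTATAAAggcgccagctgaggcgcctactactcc
Egr2, chr10:67537719-67537868, plus strand: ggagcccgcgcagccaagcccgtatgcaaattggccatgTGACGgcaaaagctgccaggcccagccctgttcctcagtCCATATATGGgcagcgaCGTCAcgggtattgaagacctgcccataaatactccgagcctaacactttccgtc
Egr4, chr6:85513590-85513739, minus strand: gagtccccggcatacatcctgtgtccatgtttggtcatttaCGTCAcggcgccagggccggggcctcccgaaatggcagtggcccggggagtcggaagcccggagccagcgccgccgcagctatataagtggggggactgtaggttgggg
Nr4a1, chr15:101266696-101266845, plus strand: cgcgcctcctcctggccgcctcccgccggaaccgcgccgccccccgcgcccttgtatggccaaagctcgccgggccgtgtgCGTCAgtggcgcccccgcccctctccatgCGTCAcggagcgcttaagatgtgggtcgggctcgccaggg
The next 3 are 30-base stretches around the CRE core matches, with only those in capitals:
Npas4, chr19:4990129-4990158, minus strand: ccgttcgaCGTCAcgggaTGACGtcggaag
Fosb, chr7:19310089-19310118, minus strand: atggagttgcgggTGACGcaagcgcggggg
Junb, chr8:84978838-84978867, minus strand: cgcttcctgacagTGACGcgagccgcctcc

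The matches lay at differing distances. In Fos a CRE core began 66 bases before the start and another 129 bases before it, with TATAAA 33 bases before it. In Junb TATAAA covered the first 6 bases from the RefSeq start, not a stretch before it. By GENCODE M21 Junb-201 starts further downstream, so this TATAAA lies upstream of the Junb-201 start. In Egr2 the CArG box, 72 bases before the start, stood between CRE core matches at 111 and 55 bases. Egr2 had several RefSeq windows, and only the one at the start of Egr2-201 was searched. Npas4 had a pair of CRE core matches in opposite orientation, 179 and 169 bases before the RefSeq start. By GENCODE M21 this pair lies within the first exon of Npas4-201, whose annotated start is further upstream. Nr4a1 had 4 matches, at 233, 213, 69 and 40 bases before the start.

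**Figure D1:**
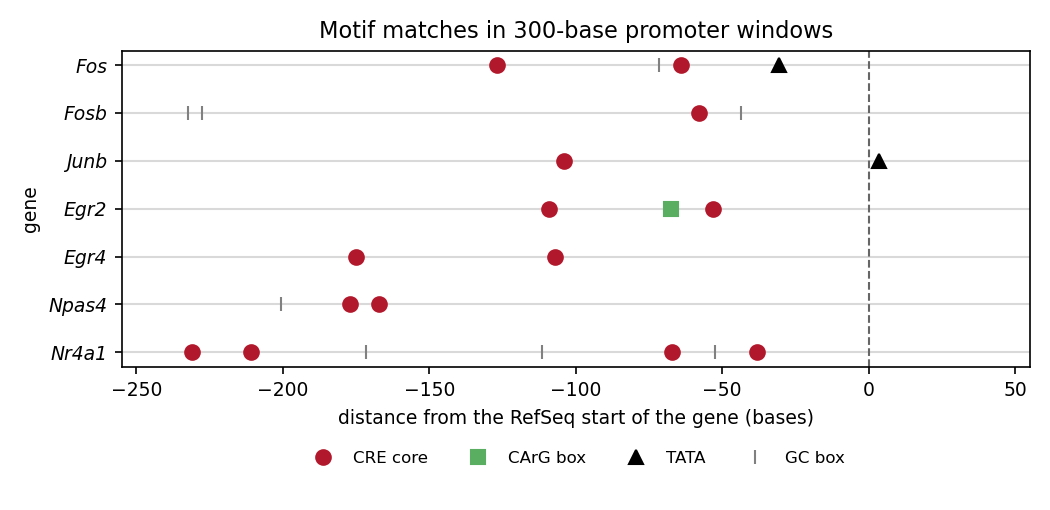
Positions of motif matches in the RefSeq promoter windows of 7 immediate early genes, with distance from the gene start in bases on the x axis and genes on the y axis. All 7 rows carry at least 1 CRE core upstream of the RefSeq start, and the single CArG box is in the Egr2 row. By GENCODE M21 the Npas4 pair lies within the first exon of Npas4-201.

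All 10 genes were detected, and their levels spanned 31.9-fold. Each was at 1 TPM or more (TPM gives a gene's part of all transcripts after correction for length) in both libraries, a level reached by 26.9% of all genes and 59.1% of the 22015 nuclear protein-coding genes. Egr1 was highest and Fosb lowest. The median of the 10 was 16.1 TPM in replicate 2 and 12.3 TPM in replicate 1, beside medians of 15.9 and 17.1 TPM for the detected nuclear protein-coding genes. Values below are means ± SD over the 2 animals (n = 2 throughout), after the value in each.

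The EGR zinc finger factors, which bind GC-rich sites in target promoters, ranged from the highest of the set, Egr1 and Egr3, through Egr4 to Egr2, second lowest of the 10. Egr1 (chromosome 18, 34859823 to 34864984, plus strand) was at 47.3 TPM in replicate 2 and 39.2 TPM in replicate 1 (43.3 ± 5.71). It ranked 2802 among the 22015 nuclear protein-coding genes, higher than 87.3% of them. Egr3 (chromosome 14, 70077203 to 70082614, plus strand), which is needed for muscle spindle development and acts in neurons downstream of activity, was at 34.6 and 33.5 TPM (34.0 ± 0.834). Of the 10 genes it had the 2 animals closest together for its level. Egr4 (chromosome 6, 85511121 to 85513589, minus strand) was at 19.1 and 15.4 TPM (17.2 ± 2.61). Egr2 (chromosome 10, 67535475 to 67542188, plus strand), best known as the Krox20 factor of hindbrain segments and myelinating Schwann cells, was far lower, at 2.39 and 2.16 TPM (2.28 ± 0.163). Within the EGR family, Egr1 made 44.6% ± 1.60 of the summed TPM, Egr3 35.3% ± 2.53, Egr4 17.7% ± 0.988 and Egr2 2.35% ± 0.0583. Egr1 exceeded Egr2 by 19.8-fold in replicate 2 and 18.2-fold in replicate 1.

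The AP-1 subunits, leucine zipper proteins that pair as FOS with JUN, ranged from mid-level to the lowest of the set. Junb (chromosome 8, 84974484 to 84978718, minus strand) was at 20.8 TPM in replicate 2 and 16.3 TPM in replicate 1 (18.5 ± 3.17). Fos (chromosome 12, 85473890 to 85477273, plus strand) was at 8.70 and 7.29 TPM (7.99 ± 0.997). Fosb (chromosome 7, 19302696 to 19310051, minus strand) was at 1.64 and 1.07 TPM (1.36 ± 0.403). Junb therefore exceeded its possible partner Fos by 2.39-fold and 2.23-fold, and Fos exceeded Fosb by 5.30-fold and 6.81-fold. In both families a relative outside the set was the most abundant. Jund, a JUN protein with a high basal level in many tissues, was at 68.9 and 72.8 TPM and made 65.5% ± 2.86 of JUN family TPM, against 17.1% ± 2.85 for Junb. Fosl2 (Fra-2), at 11.2 and 13.6 TPM, made 56.6% ± 7.36 of FOS family TPM, against 36.7% ± 4.85 for Fos and 6.22% ± 1.90 for Fosb. Fosl1 had 1 read in replicate 2 and 0 in replicate 1.

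The remaining members are an orphan nuclear receptor, a synaptic protein and a neuron-specific factor. Nr4a1 (Nur77; chromosome 15, 101254269 to 101274795, plus strand) was at 24.5 TPM in replicate 2 and 19.9 TPM in replicate 1 (22.2 ± 3.29). Its relatives Nr4a2 (Nurr1) and Nr4a3 (Nor1) were close in level, at 22.8 ± 4.64 and 16.7 ± 3.89 TPM. Replicate 2 had more Nr4a1 than Nr4a2 (24.5 and 19.5 TPM), and replicate 1 less (19.9 and 26.0 TPM). Arc (chromosome 15, 74669083 to 74672570, minus strand) was at 13.1 and 9.20 TPM (11.2 ± 2.77). Npas4 (chromosome 19, 4984355 to 4990316, minus strand), a bHLH-PAS factor induced by calcium entry and known for shaping inhibitory synapses, was at 5.89 and 5.32 TPM (5.61 ± 0.403). Arc exceeded Npas4 by 2.23-fold in replicate 2 and 1.73-fold in replicate 1. Arnt2, the common PAS partner of Npas4 in neurons, was at 83.0 and 89.3 TPM.

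The order of the mean levels was Egr1, Egr3, Nr4a1, Junb, Egr4, Arc, Fos, Npas4, Egr2, Fosb. Of its 9 neighbouring pairs, 7 had ranges over the 2 animals that did not overlap. The other 2, Nr4a1 with Junb and Junb with Egr4, overlapped and are not set apart by these ranges. Within each library Nr4a1, Junb and Egr4 kept this order. They were at 24.5, 20.8 and 19.1 TPM in replicate 2 and 19.9, 16.3 and 15.4 TPM in replicate 1. The authors' credible intervals of TPM, of unstated level, also overlapped in both libraries for Junb with Egr4, in replicate 1 for Arc with Fos and in replicate 2 for Egr2 with Fosb. In the alignment-free tables, the authors' second quantification, the order was the same except for Junb and Egr4, and levels were 1.26 to 1.5 times as high.

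**Figure D2:**
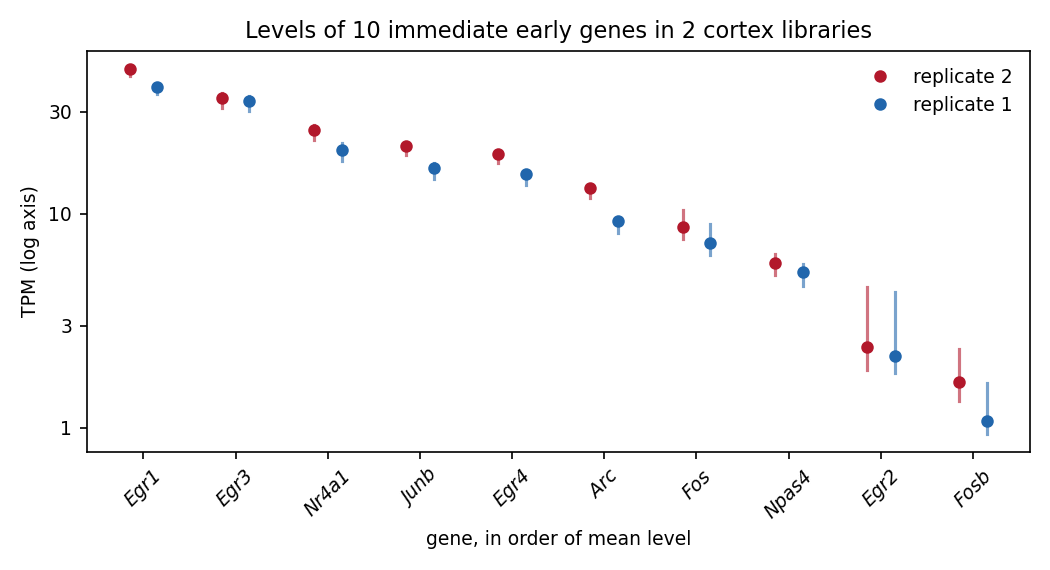
TPM on a log axis for each of the 10 genes in replicate 2 (red) and replicate 1 (blue), with vertical lines for the authors' credible intervals. Egr1 lies highest at 47.3 and 39.2 TPM, Fosb lowest at 1.64 and 1.07 TPM, and the replicate 2 point is above the replicate 1 point for every gene.

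The animals differed in the same direction for the whole set. Deposited TPM was higher in replicate 2 for 10 of 10 members, beside 26.7% of the 16467 genes with a mean of 20 reads or more. After scaling of the expected reads by TMM, which sets the typical gene to no change, 10 of 10 were again higher in replicate 2, beside 50.1% of those genes. The median log2 ratio of replicate 2 over replicate 1 was 0.40 for the members and 0.00 over all genes (0.000418). The 95% counting interval of the ratio, an exact interval for reads as drawn at random that covers no difference between animals, lay above 1 for 9 of 10 members, beside 15% of all genes, and below 1 for 0, beside 13.6%. The authors' credible intervals of TPM, of unstated level, lay apart between the libraries for only 5 of 10 members. These were Egr1, Nr4a1, Junb, Egr4 and Arc, and the share over all genes is not given here. With 2 animals of 1 group, the ratios say how far apart the animals lay and not what set them apart.

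The ratios themselves were modest. Arc had the widest gap, with 794 reads in replicate 2 and 509 in replicate 1, or 1.54-fold after scaling (interval 1.37 to 1.72). Its signed log2 ratio was above that of 98.5% of the 16467 genes. This is not a rank by distance, because genes higher in replicate 1 all count as lower. Arc was the only member past 1.5-fold. In either direction 6.16% of the 16467 genes passed that distance (1.68% higher in replicate 2, 4.48% higher in replicate 1). Fosb followed at 1.44-fold (107 and 73 reads, 1.06 to 1.97), with an interval widened by its few reads. Junb (727 and 518 reads), Nr4a1 (1066 and 763), Egr4 (800 and 590) and Egr1 (3040 and 2289) were at 1.38-fold, 1.37-fold, 1.33-fold and 1.31-fold, each with an interval above 1. The EGR genes were not alike in this. Egr3, with 2176 and 2010 reads, was 1.07-fold apart (1.00 to 1.13, with the lower bound just above 1), less than the lower bound for Egr1 (1.24). Egr2, with 83 and 76 reads, was also at 1.07-fold, and its interval of 0.778 to 1.49 held 1. Npas4 (409 and 323 reads) and Fos (283 and 228) were at 1.25-fold and 1.22-fold, with lower bounds of 1.07 and 1.02.

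**Figure D3:**
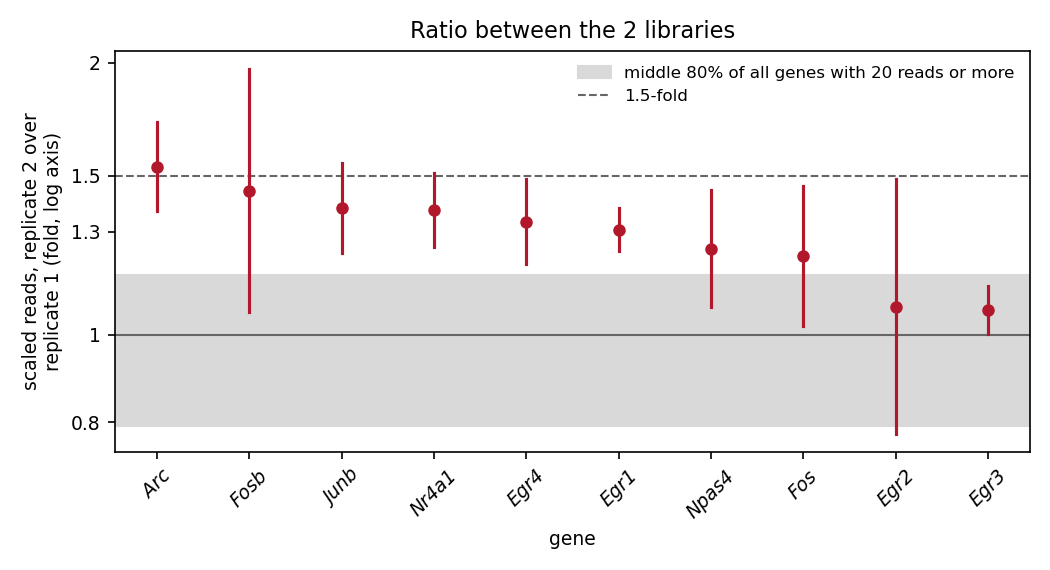
Ratio of TMM-scaled reads in replicate 2 over replicate 1 on a log axis for each gene, with 95% counting intervals as lines, the middle 80% of all genes as a grey band and 1.5-fold as a dashed line. Arc (1.54-fold) lies above the dashed line, while Egr2 and Egr3 (both 1.07-fold) lie within the band.

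Further genes of the response had medians nearer to 0 on the log2 scale. Among 30 further rapid primary response genes, 21 were higher in replicate 2, the median log2 ratio was 0.08, and 1 passed 1.5-fold. That gene was Gadd45g, a growth-arrest and DNA-damage gene, with 168 reads in replicate 2 and 108 in replicate 1 (1.53-fold). The list was led by the ADP-ribosylation factor Arf4 (69.4 and 77.5 TPM), the zinc finger factor Klf6 (38.6 and 40.7 TPM) and the dual-specificity phosphatase Dusp6 (36.4 and 35.7 TPM). In scaled reads their log2 ratios were -0.02, -0.05 and 0.30. Zfp36, which destabilises AU-rich mRNAs and was lowest in mean, was at 0.84 and 0.89 TPM, and Amigo3 was at 0.76 and 0.98 TPM. Among AP-1 relatives, Jun, the classical partner of FOS, was at 18.9 and 18.8 TPM (log2 ratio 0.12), Jund had a log2 ratio of 0.03 and Fosl2 of -0.09. Atf3, a factor induced by injury and stress, was at 0.46 and 0.38 TPM, and Fosl1, Batf, Batf3 and Maff were also below 1 TPM. In the list of NR4A and NPAS relatives and partners, with Arnt2, Nr4a2 and Npas2 (20.9 ± 1.70 TPM) highest and Npas1 (7.85 ± 0.601 TPM) lowest, 4 of 7 were higher in replicate 2. There Nr4a3 was at 1.46-fold (1930 and 1301 reads) and Nr4a2 at a log2 ratio of -0.16. The EGR co-repressors Nab1 and Nab2 were at 14.7 ± 0.396 and 14.2 ± 0.184 TPM, with log2 ratios of -0.01 and 0.21.

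Lists of the later wave and of the upstream machinery also had medians near 0. Of 20 delayed and late response genes, 11 were higher in replicate 2, with a median log2 ratio of 0.02 and 0 past 1.5-fold. Its highest members were the kinase Plk2 (119 and 122 TPM), the secreted neuropeptide precursor Vgf (101 and 98.5 TPM) and the scaffold Homer1 (70.5 and 73.6 TPM). Its lowest was Ptgs2 (cyclooxygenase-2; 1.29 and 1.20 TPM). Bdnf, the neurotrophin that Npas4 and CREB act on, was at 4.99 and 5.82 TPM (log2 ratio -0.13). All 24 upstream factors and kinases were detected, 17 were higher in replicate 2, the median log2 ratio was 0.05 and 0 passed 1.5-fold. They were led by Mef2c (664 and 609 TPM), an activity-regulated factor, and the calcineurin subunit Ppp3ca (267 and 264 TPM), with the SRF partner Elk3 lowest (7.26 and 6.88 TPM). Creb1 was at 19.7 and 20.2 TPM and Srf at 21.1 and 22.2 TPM. Of 10 partners of the Arc protein, 8 were higher in replicate 2, with a median log2 ratio of 0.06 and 0 past 1.5-fold. Camk2a, Dlg4 and Camk2b were highest, at 507 ± 24.0, 443 ± 18.6 and 385 ± 9.77 TPM, and Grip1 was lowest, at 20.5 and 22.6 TPM.

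Markers of other cells and of handling were read beside the ratios. The 6 oligodendrocyte markers were all past 1.5-fold, with a median log2 ratio of 1.27 and a summed level of 389.7 TPM in replicate 2 and 196 TPM in replicate 1. They ran from Cnp (1.71-fold) and Mbp (1.94-fold) to Mobp (2.80-fold). Glutamatergic neuron markers, the cells in which Arc and Egr1 are best known in cortex, summed to 1213 TPM in replicate 2 and 1248 TPM in replicate 1. In scaled reads 6 of 6 were higher in replicate 2, with a median log2 ratio of 0.13 and 0 past 1.5-fold. Astrocyte, microglial and endothelial markers had median log2 ratios of 0.02, 0.06 and 0.14. The medians were 0.08 for pan-neuronal, 0.15 for oligodendrocyte precursor, 0.07 for pericyte and smooth muscle and -0.02 for meningeal fibroblast markers. Of the 6 striatal markers 5 were lower in replicate 2, with Penk at a log2 ratio of -0.97 (8.59 and 18.3 TPM). Of the 5 hippocampal markers, the 4 with 20 reads or more were all higher in replicate 2, with a median log2 ratio of 0.23. Of these Dsp passed 1.5-fold (55 and 33 reads, 1.64-fold), while the summed level of the list was 24.0 TPM in replicate 2 and 25.5 TPM in replicate 1. GABAergic interneuron markers had a median log2 ratio of -0.03, with 3 of 6 higher in replicate 2 and Gad1, which makes GABA, at 0.825-fold (2873 and 3427 reads). Choroid plexus and ependyma markers summed to 13.6 and 7.06 TPM, most of it Ttr (9.70 and 3.98 TPM), and blood markers to 547 and 446 TPM. None of these marker lists had a gene at 0 in both libraries. In the list of dissociation and heat stress genes, 3 of the 7 that could be matched to a single gene were higher in replicate 2 and the median log2 ratio was -0.02. Hsph1, Hspa5 and Atf4 were highest (122 ± 1.12, 101 ± 7.81 and 51.4 ± 4.09 TPM). Hspa1b had 66 and 29 reads (2.24-fold), Hspa1a 131 and 142, and these near-identical genes can share reads. The part of any of these differences in the immediate early gene ratios was not tested.

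**Figure D4:**
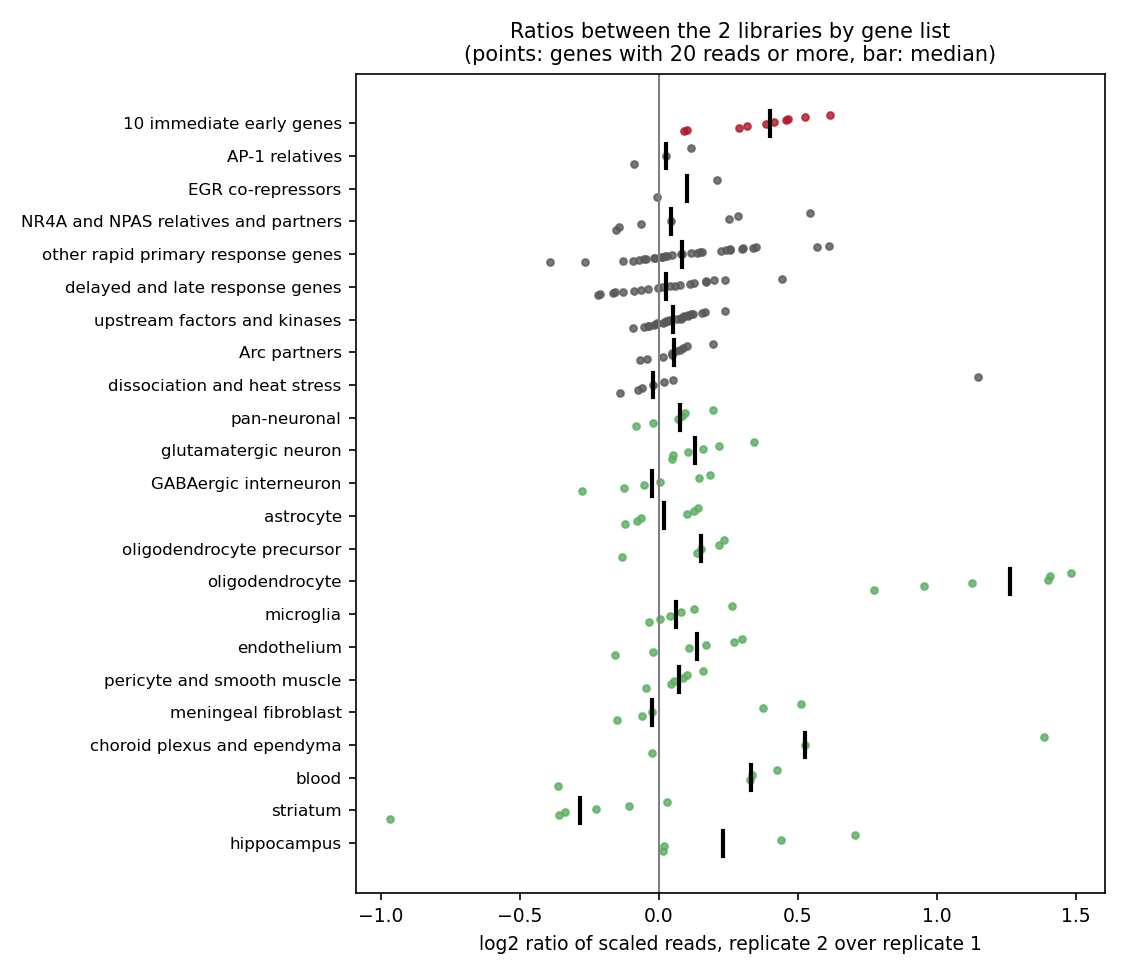
Log2 ratio of scaled reads in replicate 2 over replicate 1 for genes with a mean of 20 reads or more, by gene list, with black bars for medians (red, the 10 immediate early genes; grey, related lists; green, cell and tissue markers). The immediate early genes have a median of 0.40, the related lists lie between -0.02 and 0.10, and oligodendrocyte markers stand furthest out at 1.27.

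The 10 genes have 36 annotated transcripts, and 9 of them have more than 1. For all 9 the leading transcript by share of the gene's TPM was the same in both animals. For 8 it was also the same in the alignment-free tables, the exception being Nr4a1. The share over all genes is not given here. The authors' credible intervals of the leading and next transcript overlapped in both libraries for Nr4a1, Arc, Egr2 and Fosb. They also overlapped in replicate 2 for Egr3 and in replicate 1 for Npas4. Egr4 has only Egr4-201, and Junb-201, a single exon that encodes 344 codons, took 100% and 99.2% of Junb.

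By share of TPM, transcripts without a full reading frame made a large part of Egr3, Npas4 and Fos. Egr3-204, which encodes 387 codons, led with 41.8% of Egr3 TPM in replicate 2 and 49.2% in replicate 1. The retained-intron form Egr3-202 followed with 32.2% and 28.2% (863 and 668 reads). It starts 1425 bases downstream of Egr3-204 and holds 157 intronic bases just before the last exon and 64 bases at the 3′ end that Egr3-204 lacks. It lacks 285 bases of Egr3-204, its first exon among them, and the forms share 3655 bases, on which reads cannot tell them apart. The alignment-free share of Egr3-202 was 27.3% and 21.6%. Npas4-201, the 8-exon form of 802 codons, held 69.7% and 53.7% of Npas4. Npas4-202, with 514 bases of retained intron, held 16.5% and 19.5%, and Npas4-203, which skips an exon and is annotated as a target of nonsense-mediated decay, held 13.8% and 26.9%. The alignment-free tables put the animals closer for Npas4-203, at 18.1% and 19.9%. Fos-201, the 4-exon form that encodes 380 codons, held 67.8% and 74.2% of Fos, and the noncoding Fos-203, which starts in the first intron, 25.3% and 25.8% by TPM on only 31.4 and 24.5 reads. The noncoding Fos transcripts together held 32.2% and 25.8% of TPM, while Fos-201 had 86% and 89% of the Fos reads. In the alignment-free tables Fos-201 held 50.2% and 74.1% of TPM, and the noncoding transcripts 49.8% and 25.9%. The gap between the animals thus differed with the quantification. Total RNA includes unspliced nuclear RNA, and the part of that RNA in these shares was not tested.

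**Figure D5:**
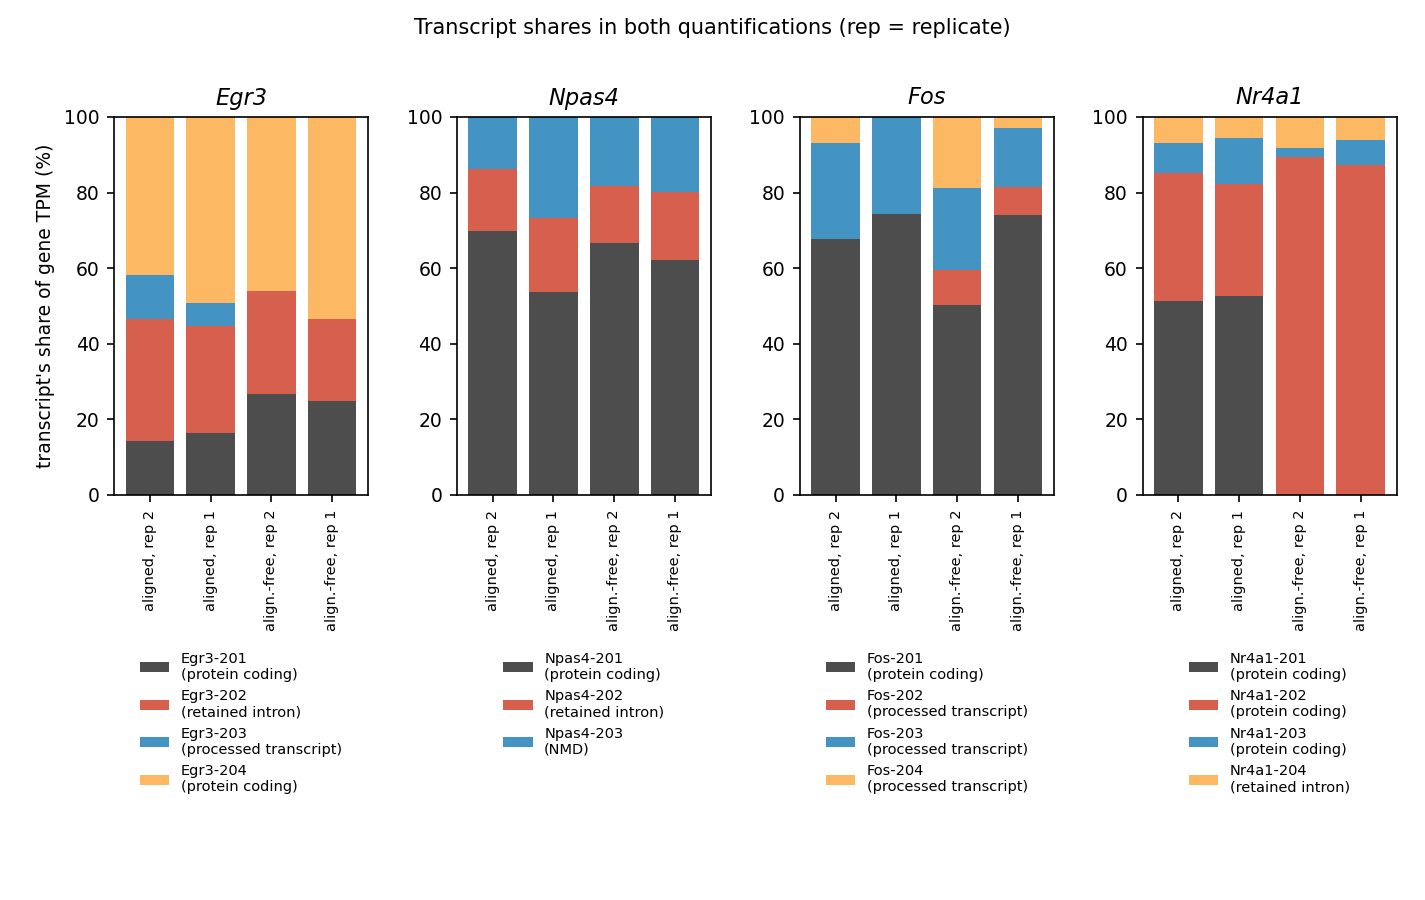
Share of each gene's TPM by transcript for Egr3, Npas4, Fos and Nr4a1 (y axis, percent), in the alignment-based and alignment-free tables of replicate 2 and replicate 1; NMD stands for nonsense-mediated decay. The retained-intron Egr3-202 takes 21.6% to 32.2% in every bar, while Nr4a1-201 takes 51.4% and 52.6% in the aligned bars and close to none in the alignment-free bars.

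For Nr4a1 the quantifications gave opposite answers about the first exon. Nr4a1-201 and Nr4a1-202 encode the same 601 codons and share 2351 bases, but Nr4a1-201 starts 12577 bases downstream, at the promoter printed above. The alignment-based tables gave Nr4a1-201 612.8 and 465 reads, 51.4% and 52.6% of Nr4a1 TPM, and Nr4a1-202 33.8% and 29.6%. The alignment-free tables gave Nr4a1-201 0.19 and 0.02 reads and Nr4a1-202 1046 and 747 reads. Which start the cortex used can therefore not be read from these tables. Egr1 and Arc had the same leading transcript in both quantifications. Egr1-202 took 86.1% and 87.6% of Egr1, and the rest went to Egr1-201, which starts 1384 bases upstream and encodes the same 533 codons. Arc-201 took 56.2% and 64.7% of Arc, but its credible interval overlapped that of Arc-202 in both libraries. Arc-201 differs from Arc-202 by 3 bases at the start of an exon after the stop codon and 2 bases at the gene start. Both encode 396 codons.

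Fosb carries a known switch between full-length FosB and the truncated, long-lived deltaFosB, which lacks the C-terminal activation domain and builds up under chronic stimulation. The switch is the removal of 140 bases within the last coding exon (chr7:19305007-19305146, minus strand). These sequences show it in GENCODE M21 transcripts: capitals mark the 140 bases kept in Fosb-201 (338 codons), and in Fosb-206 (237 codons) the stop codon that directly follows the junction.
Fosb-201: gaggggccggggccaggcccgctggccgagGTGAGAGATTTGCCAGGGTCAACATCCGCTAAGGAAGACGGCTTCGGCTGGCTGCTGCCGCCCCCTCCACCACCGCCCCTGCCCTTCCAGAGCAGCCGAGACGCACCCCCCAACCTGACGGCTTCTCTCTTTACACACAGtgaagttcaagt
Fosb-206: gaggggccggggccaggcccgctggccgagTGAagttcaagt
The kept stretch begins with GT and ends with AG, the letters of an intron. Fosb-201 had 94.4 of 107 Fosb reads in replicate 2 and 59.7 of 73 in replicate 1, 76.3% and 81.3% of Fosb TPM. Fosb-206 had 6.06 reads in replicate 2 (18.2% of TPM) and 0 in replicate 1. The alignment-free tables gave it 5.15 reads and 0. Fosb-207, the other form without the 140 bases, had 0 reads in both libraries of both tables. The authors' credible intervals for Fosb-206 overlapped, reaching from near 0 to 0.943 TPM in replicate 2 and from near 0 to 0.439 TPM in replicate 1. At this depth these few reads do not set the animals apart for the truncated form.

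Egr2 shares rest on few reads and are uncertain. Egr2-201, which encodes 470 codons, had 77.3 and 70.9 of the 83 and 76 reads, but 55.1% and 61.3% of TPM. Egr2-207, a 356-base partial transcript whose bases all lie within Egr2-201, took 44.9% and 33.9% of TPM on 5.66 and 3.51 reads, and 0 reads in the alignment-free tables.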

How the data were processed

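Values for the 2 libraries came from tables that the authors deposited. Expected counts and TPM per gene and transcript were made by the authors from transcriptome alignments (build mm10, GENCODE M21), per the file headers and the deposited README files, and their credible intervals and transcript percent shares (percent of the gene's TPM) are used as deposited. In the alignment-free tables the authors deposited estimated counts and TPM per transcript, which were summed per gene here. Aligner and quantifier: not given in the sources used here. Coordinates are GENCODE M21 (mm10), counted from 1, and promoter sequences are RefSeq's for GRCm38.p6. All reads were quantified against this reference, so reads of CAST alleles can map less well.

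Expected counts were rounded and scaled by TMM (edgeR 4.0.16, R 4.3.3), with 0.5 added for log2 ratios, on genes with a mean of 20 reads or more. The labels describe 2 separate females (n = 2), and SDs describe these animals only. Counting intervals are 95% Clopper-Pearson intervals of replicate 2's share of the reads and cover counting error only. Alternatives used DESeq2 1.42.0 size factors, ERCC scaling and the alignment-free tables. The ratio step was tested on simulated data. ERCC rows, left out of gene counts, held 0.401% (replicate 2) and 0.413% (replicate 1) of all reads. All members are named, and of each related list the 3 highest, the lowest, those under 1 TPM and those past 1.5-fold at 20 reads or more, except 1 gene that is not reported here; Bdnf, Creb1, Srf and further list genes were chosen after their values were seen. Of the cell and tissue marker lists, genes are named only as examples. Cyr61, Mkl1 and Mkl2 were matched as Ccn1, Mrtfa and Mrtfb through RefSeq synonyms. Ddit3 matched 2 overlapping genes and was left out. The members and lists were chosen with earlier results of these data known. Figures were drawn with matplotlib 3.10.9 in Python 3.11.15.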

Additional observations from a re-analysis of the deposited data

How the results depend on the processing

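The main limit is the design: 2 animals of 1 group, with no stimulated or silenced cortex, and 107 reads or fewer per library for Fosb and Egr2. All 10 members were detected in the alignment-free tables, at 0.5 TPM and without either replicate, and 8 of 10 at 5 TPM. For the counts of members in this paragraph, shares over all genes are not given here. The median level of the members, 14.2 TPM, was 19.5 TPM in the alignment-free tables and 28.7 TPM when TPM was rescaled over nuclear protein-coding genes, where the total is smaller by construction; it was 13.7 TPM with posterior mean TPM, and 12.3 to 16.1 TPM when either replicate was left out. The median log2 ratio between libraries, 0.40, ranged from 0.40 to 0.44 over other settings. These were DESeq2 size factors, ERCC scaling, the alignment-free tables, 2 added to counts and no filter on low counts. Medians over all genes with a mean of 20 reads or more were 0.02 (DESeq2), 0.01 (ERCC) and 0.002 (alignment-free). Under each scaling 10 of 10 members were higher in replicate 2. Members past 1.5-fold numbered 1, but 2 in the alignment-free tables, where Fosb (log2 ratio 0.71) joined Arc (0.63), and 0 at a threshold of 2-fold. Leading transcripts were the same in both libraries for 9 of 9 genes by share of TPM, by share of reads and in the alignment-free tables. The noncoding share of Fos in replicate 2 was 32.2%, but 49.8% in the alignment-free tables; the cause was not tested. No paired analysis was possible because there is a single group.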
